A study of Mus musculus with 6 samples.

Results

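The genes Hmgcs1, Sqle, Idi1, Fdft1, Lss, Cyp51, Dhcr7 and Insig1 of cholesterol synthesis were followed from pluripotent ESCs to definitive endoderm. They were chosen by their symbols in the gene tables, and all 8 were found among the 24054 genes listed and among the 14539 genes with enough counts to be tested. The genes had been proposed as cholesterol synthesis and uptake genes. By their known functions 7 of them encode enzymes of synthesis and Insig1 encodes a regulator of it, while none encodes an uptake receptor, so uptake was examined through a separate list of 16 genes. RNA-seq was performed on d0, d3F and d5FS cells, with 2 independent replicates each and 6 samples in all. All samples came from a single double knock-in (DKI) mouse ESC line that is heterozygous for Foxa2-Venus and homozygous for Sox17-Cherry, so that every group carries both reporter alleles. The d0 cells were Foxa2-Venus-neg and Sox17-Cherry-neg ESCs sorted at day 0. The d3F cells were Foxa2-Venus-pos and Sox17-Cherry-neg mesendoderm sorted at day 3, and the d5FS cells were Foxa2-Venus-pos and Sox17-Cherry-pos endoderm sorted at day 5. ESCs were kept in a DMEM-based medium with fetal calf serum and LIF. Differentiation took place in endoderm differentiation medium (EDM), whose recipe names a lipid-rich albumin and insulin and no serum, with 1 ng/ml Wnt3a and 10 ng/ml Activin A every day. For a pathway that responds to sterol supply, the stage of the cells and the change of medium after d0 therefore cannot be told apart.

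Cells make cholesterol from acetyl-CoA through mevalonate, isoprenoid units, squalene and lanosterol. When membrane sterol falls, the transcription factor SREBP2 is released from the endoplasmic reticulum and switches on most enzymes of the pathway, whereas INSIG proteins hold SREBP back when sterol is plentiful. SREBP proteins bind sterol regulatory elements near gene starts, usually next to sites of the factors NF-Y and Sp1. In the early embryo sterols are needed for membrane growth and for the maturation of Hedgehog signals, which carry a cholesterol group.

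The upstream sequences of 4 members are shown because they cover the member whose level rose by the test (Cyp51), the only member with a match to the sterol regulatory element searched (Hmgcs1), the member with the widest spread between replicates (Lss) and the member that differed least between d0 and d3F (Idi1). Each line gives the 150 bases before the RefSeq start site on mm10, 5′ to 3′ on the strand of the gene, with capitals for the sterol regulatory element and the NF-Y box on either strand. The windows are chr13:119690201-119690350 (plus strand) for Hmgcs1, chr5:4104698-4104847 (minus strand) for Cyp51, chr10:76531455-76531604 (plus strand) for Lss and chr13:8885456-8885605 (plus strand) for Idi1.
Hmgcs1: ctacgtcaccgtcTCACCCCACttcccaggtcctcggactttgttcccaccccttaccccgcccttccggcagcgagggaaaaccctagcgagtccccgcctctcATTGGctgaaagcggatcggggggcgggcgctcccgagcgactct
Cyp51: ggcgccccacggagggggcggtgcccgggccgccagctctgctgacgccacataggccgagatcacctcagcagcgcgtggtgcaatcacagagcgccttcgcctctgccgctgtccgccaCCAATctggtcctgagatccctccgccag
Lss: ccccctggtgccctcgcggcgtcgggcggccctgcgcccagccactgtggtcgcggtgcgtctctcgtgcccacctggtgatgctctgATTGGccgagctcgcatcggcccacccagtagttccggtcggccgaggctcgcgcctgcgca
Idi1: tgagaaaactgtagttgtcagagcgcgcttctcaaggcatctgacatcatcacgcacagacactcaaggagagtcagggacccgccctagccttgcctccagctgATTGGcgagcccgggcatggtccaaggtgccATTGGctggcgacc
Promoter windows from 250 bases before to 50 bases after the start site were present for 6 of the 8 members, namely Hmgcs1, Idi1, Lss, Cyp51, Dhcr7 and Insig1. The sterol regulatory element, searched as TCACNCCAC on both strands, was found in 1 of these 6 promoters, and in 1.24% of the 32851 windows of all genes. In Hmgcs1 its first base lay at -137 from the start site. The NF-Y box CCAAT was found in 6 of 6, against 37.4% of all windows, and the GC box GGGCGG, to which Sp1 binds, in 6 of 6 against 35.7%. Counted per gene, as the members are, the shares of all genes were 1.44% for the sterol regulatory element, 41.1% for the NF-Y box and 38.2% for the GC box. Among the other synthesis enzymes described below, 10 of 12 with a window held the NF-Y box, 11 of 12 the GC box and 0 of 12 the sterol regulatory element as spelled. Dhcr7 was counted once over its alternative start sites. Its NF-Y box was found only in the window from chr7:143829964, with 0 in those from chr7:143822917 and chr7:143823149. No match of a motif overlapped a match of another in these promoters, and a match describes the sequence only.

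Read depth was similar across the samples, with total expected counts from 16457729 in d5FS to 22768686 in d3F. Every member was covered by at least 321 expected counts in every sample. The populations carried the markers of their labels, though the summed level of mesendoderm genes also stayed high in d5FS and pluripotency genes were still present in d3F. The summed level of 6 pluripotency genes was 1265 and 2748 CPM (counts scaled to a common library size) in d0, 866 and 458 in d3F, with 121 and 101 in d5FS. That of 6 mesendoderm genes, the sorted Foxa2 among them, was 31.9 and 12.1, then 443 and 388, then 279 and 326. In d5FS, 5 of these 6 genes were called higher than in d0, while 2 were called lower than in d3F. Their lowest log2 fold change from d3F to d5FS was -4.34. The summed level of 7 endoderm genes, the sorted Foxa2 and Sox17 among them, was 7.46 and 9.43, then 176 and 273, then 604 and 1111. Of 8 fibroblast genes, which could mark feeder cells, the sum was 11.3 and 14.9, then 32.4 and 77.8, then 232 and 196, with 4 of 7 tested genes called higher in d5FS than in d0, Lum at 0 in 4 of 6 samples and Dcn at 0.745 CPM or less. The sum of 6 mesoderm genes was 2.06 and 2.61 in d0, 7.84 and 29.2 in d3F, with 3.35 and 2.98 in d5FS. The sum of 8 visceral and liver-like endoderm genes was 31.7 and 80.5, then 22.9 and 27.7, then 233 and 221, with 5 of 7 tested genes called higher in d5FS than in d0 and 4 of 7 higher in d5FS than in d3F. Shares over all tested genes were 12.4% called higher from d0 to d5FS and 1.54% called in either direction from d3F to d5FS. The study depleted the ESCs of feeder cells and passaged them on gelatine before differentiation. Whether other cells or the sorted cells themselves gave the fibroblast, mesoderm and visceral or liver-like sums was not tested. Any part of other cells in the results below was not tested either. In every population the second replicate had more genes detected than the first, at 18382 to 19910 against 16790 to 16989. The list of sequenced libraries names one library of each population mRNA and the other totRNA, without saying which replicate is which. A difference in preparation between replicates would enter the replicate gaps and SEs below, and its part was not tested.

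Of the 8 member genes, 7 were most abundant at the mesendoderm stage. The summed CPM of the 8 genes was 749 and 910.3 in d0, 1689.8 and 1624 in d3F, with 1284 and 1069.7 in d5FS, so that the d3F samples lay above all others and the d5FS samples above both d0 samples. These CPM values were scaled by TMM, which sets most genes level between samples. Insig1 alone had its highest mean in d5FS, by a margin far below its spread. Of all tested genes 20.8% had their highest mean in d3F. With TPM rescaled by the TMM factors instead of CPM, the shares were 8 of 8 members and 40.3% of all tested genes. These factors were estimated on counts, not on TPM. Genes with an effective length under 100 bases took 44.7% and 57.5% of TPM in d3F against 62.1% and 70.3% in d5FS. The TPM setting therefore cannot check at which stage a gene is highest. When each sample was left out in turn, 6 to 8 members had their highest mean in d3F. In bulk samples, fewer cells of a type and less RNA per cell cannot be told apart.

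**Figure D1:**
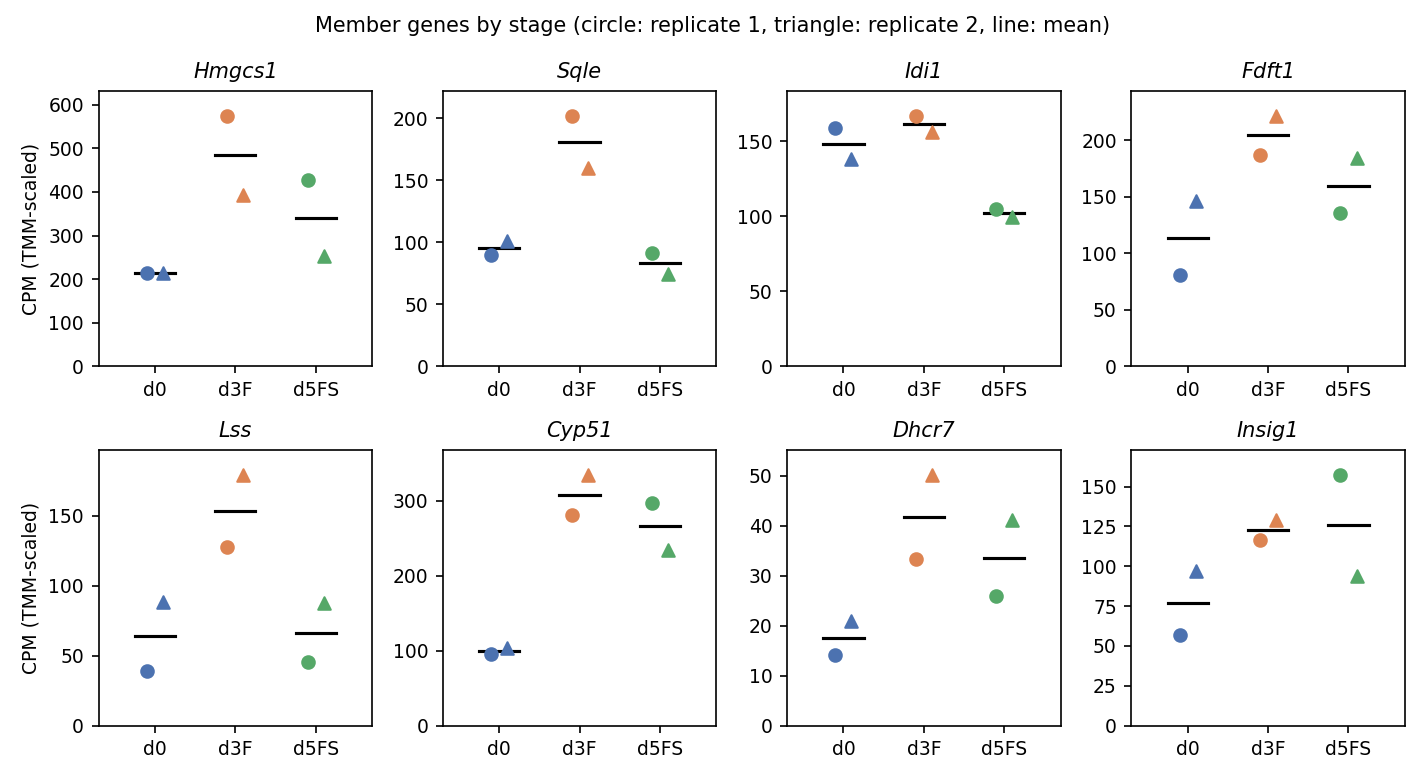
TMM-scaled CPM (y axis, from 0, a scale for each gene) of the 8 member genes in d0, d3F and d5FS cells. Circles are replicate 1, triangles replicate 2 and lines the mean of 2 replicates; both d3F samples lie above both d0 samples in 7 panels, and Idi1 is the exception.

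Hmgcs1 (chr13:119690379-119708260, GENCODE M21 on mm10) encodes HMG-CoA synthase, which acts early in the mevalonate part of the pathway. It was the most abundant member per length at every stage. Its level was 214 and 215 CPM in d0, 575 and 394 in d3F, with 427 and 254 in d5FS. The d0 samples were nearly equal and lay below the other 4, while the d3F and d5FS samples overlapped. From d0 to d3F the log2 fold change was 1.18 ± 0.36 (SE), and it did not pass the test (adjusted p = 0.104). Adjusted p values are from the quasi-likelihood test of edgeR with Benjamini-Hochberg adjustment over all tested genes, unless another tool is named.

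Idi1 (chr13:8885501-8892451) encodes the isomerase that balances both isoprenoid building blocks. Its level was 159 and 138 CPM in d0, 167 and 156 in d3F, with 105 and 99.7 in d5FS. The d0 and d3F samples overlapped and the d5FS samples lay below all of them. It differed by a log2 fold change of 0.12 ± 0.27 from d0 to d3F (adjusted p = 0.852) and -0.66 ± 0.27 from d3F to d5FS (adjusted p = 0.242). This made Idi1 the member with the smallest difference between ESCs and mesendoderm, and the only one with both d5FS samples below both d0 samples.

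Fdft1 (chr14:63145150-63179578) encodes squalene synthase, the first enzyme committed to sterols. It measured 81.1 and 146 CPM in d0, 187 and 222 in d3F, with 136 and 184 in d5FS. Both d3F samples lay above every other sample, with d0 and d5FS overlapping. Between d0 and d3F the log2 fold change was 0.85 ± 0.36 (adjusted p = 0.224). Fdft1 shares 774 exon bases with Ctsb, a lysosomal protease gene on the opposite strand. Since the library kit does not mark strand, reads from these bases cannot be assigned to a gene. Ctsb measured 52.1 and 81.1 CPM in d0, 77.8 and 103 in d3F, with 168 and 160.4 in d5FS, and its part in the Fdft1 values was not tested.

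Sqle (chr15:59315077-59331192) encodes squalene epoxidase, an oxygen-dependent and often limiting step. Its level was 90.1 and 101 CPM in d0, 202 and 160 in d3F, with 91.3 and 74.6 in d5FS. The d3F samples stood above the other 4, and d0 and d5FS overlapped. The level was 1.89 times as high in d3F as in d0, a log2 fold change of 0.92 ± 0.28 (adjusted p = 0.108). It was lower again in d5FS, with a log2 fold change of -1.12 ± 0.29 that did not pass the test (adjusted p = 0.094).

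Lss (chr10:76531588-76557138) encodes lanosterol synthase, which closes the sterol ring. It measured 39.3 and 88.3 CPM in d0, 128 and 179 in d3F, with 45.3 and 87.4 in d5FS. The groups d0 and d5FS covered almost the same range, and both d3F samples lay above it. The replicates of d0 differed 2.25-fold, the widest gap of any member. The differences of 1.27 ± 0.47 (log2) from d0 to d3F (adjusted p = 0.167) and -1.21 ± 0.47 from d3F to d5FS (adjusted p = 0.223) did not pass. From d0 to d5FS the value was 0.06 ± 0.46, and its sign turned when d0 replicate 1 or d5FS replicate 2 was left out. Lss shares 381 exon bases with 4930483K19Rik, an antisense gene that measured 0.17 to 1.67 CPM over the 6 samples. Lss had fractional counts in 5 of 6 samples, and the part of 4930483K19Rik in its values was not tested.

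Cyp51 (chr5:4081145-4104746) encodes lanosterol demethylase, the cytochrome P450 enzyme that starts the conversion of lanosterol. It was the only member past the thresholds, which were 0.05 for the adjusted p and 1 for the size of the log2 fold change. Its level was 95.1 and 104 CPM in d0, 281 and 334 in d3F, with 297 and 235 in d5FS. Both later populations lay well above d0 and overlapped each other. Cyp51 rose 3.09-fold from d0 to d3F (log2 1.63 ± 0.29, adjusted p = 0.0234) and was higher in d5FS than in d0 by a log2 fold change of 1.42 ± 0.29 (adjusted p = 0.013). The difference between d3F and d5FS was -0.21 ± 0.29 (adjusted p = 0.746). The first call was lost without d0 replicate 1 (log2 1.56, adjusted p = 0.0589), d0 replicate 2 (1.71, 0.0832), d3F replicate 1 (1.75, 0.0701) or d3F replicate 2 (1.51, 0.179), and the call from d0 to d5FS was lost without d5FS replicate 1 (1.23, 0.0709). Cyp51 shares 166 exon bases with Akap9 on the opposite strand, which measured 21.5 to 93.3 CPM over the 6 samples. Cyp51 had fractional counts in 0 of 6 samples, and the part of Akap9 in its values was not tested.

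Dhcr7 (chr7:143823145-143848410) encodes the reductase of the final step to cholesterol, whose loss in people causes Smith-Lemli-Opitz syndrome. It was the least abundant member per length at every stage. Its level was 14.1 and 20.96 CPM in d0, 33.3 and 50.2 in d3F, with 26.0 and 41.2 in d5FS. All 4 later samples lay above both d0 samples, and d3F and d5FS overlapped. In log2 terms it differed by 1.25 ± 0.39 from d0 to d3F (adjusted p = 0.106) and 0.94 ± 0.38 from d0 to d5FS (adjusted p = 0.108).

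Insig1 (chr5:28071363-28078662) encodes the endoplasmic reticulum protein that retains SREBP when sterol is plentiful, and it is itself an SREBP target. Its level was 56.8 and 96.8 CPM in d0, 116 and 129 in d3F, with 157 and 94.1 in d5FS. The d3F samples lay above d0, whereas the d5FS samples spanned the range from d0 to above d3F. In log2 terms the differences were 0.68 ± 0.37 from d0 to d3F (adjusted p = 0.359) and 0.71 ± 0.37 from d0 to d5FS (adjusted p = 0.192). The value of 0.04 ± 0.37 from d3F to d5FS changed sign when d3F replicate 1 or d5FS replicate 1 was left out.

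To compare ESCs with mesendoderm, the members were set beside all tested genes. One of 8 members was called, Cyp51, and it was higher, where 4.7% of all tested genes were called and 2.8% were called higher. All 8 log2 fold changes were positive, from 0.12 for Idi1 to 1.63 for Cyp51 with a median of 1.05, while 49.7% of all genes were positive with a median of -0.01. Both d3F samples exceeded both d0 samples in 7 of 8 members and in 26.7% of all genes. An unadjusted p under 0.05 was found for 6 members, Hmgcs1, Sqle, Fdft1, Lss, Cyp51 and Dhcr7, and for 20.6% of all genes. The number called depended on the method. It was 3 by the Wald test of DESeq2 (Hmgcs1, Cyp51 and Dhcr7), 4 without the filter on low counts and 0 when the test was made against a log2 fold change of 1 by either tool. The share of all genes called moved as well, to 9.74% by the Wald test and 9.04% without the filter.

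From mesendoderm to endoderm none of the 8 members passed edgeR's test, where 1.54% of all genes were called. The log2 fold changes ran from -1.21 for Lss to 0.04 for Insig1, with a median of -0.43 against 0.01 over all genes. Sqle, Idi1, Fdft1 and Lss had both d5FS samples below both d3F samples, 4 of 8 members where 25.7% of all genes did. Sqle, Idi1 and Lss had an unadjusted p under 0.05, 3 members against 18.1% of all genes, and the DESeq2 Wald test called 1 member, Sqle (log2 -1.13, adjusted p = 0.0246). This comparison shares the d3F samples with the one before, so a high d3F level enters both.

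Between ESCs and endoderm the members differed among themselves. Cyp51 was the 1 member of 8 called, where 22.8% of all genes were called and 12.4% were called higher. Both d5FS samples lay above both d0 samples in Hmgcs1, Cyp51 and Dhcr7, 3 of 8 members against 32.2% of all genes. The log2 fold changes of Sqle (-0.21 ± 0.28, adjusted p = 0.631), Lss (0.06 ± 0.46, adjusted p = 0.942) and Idi1 (-0.54 ± 0.27, adjusted p = 0.173) were near or below 0. Those of Hmgcs1 (0.67 ± 0.36, adjusted p = 0.201), Fdft1 (0.49 ± 0.36, adjusted p = 0.339), Dhcr7 and Insig1 were positive without passing. By unadjusted p, Cyp51 and Dhcr7 were under 0.05, 2 members against 38.9% of all genes.

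**Figure D2:**
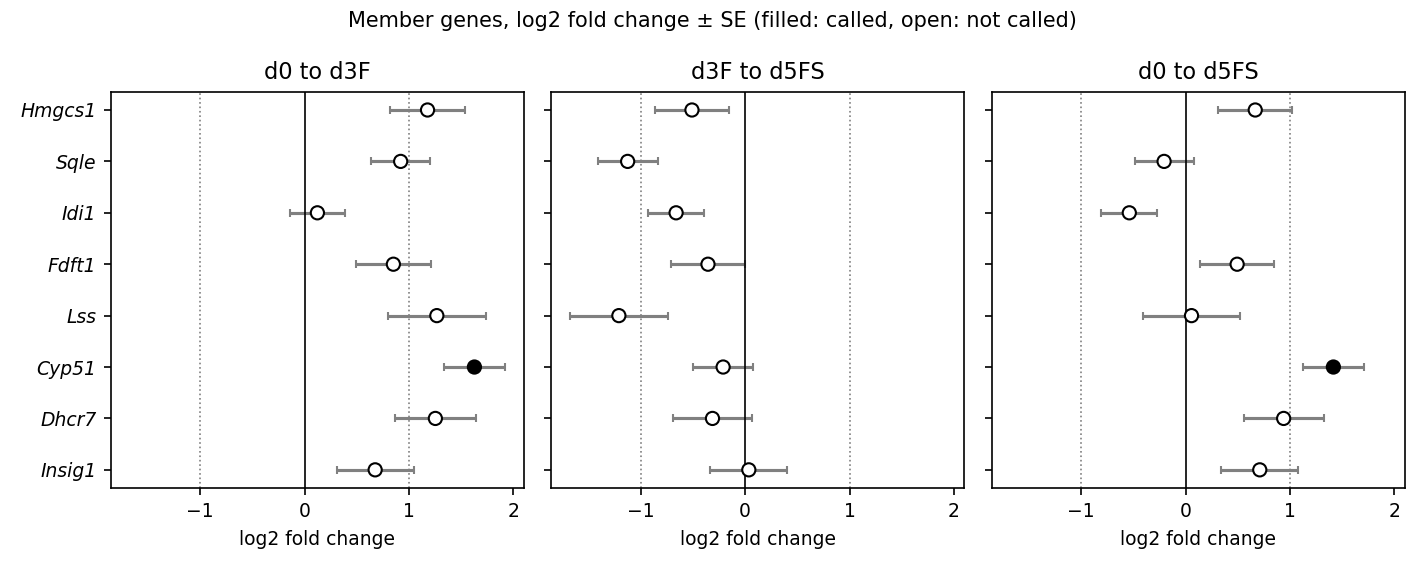
Log2 fold changes (x axis) of the 8 member genes in the 3 comparisons, with bars of 1 SE from the edgeR fit and dotted lines at -1 and 1. Filled points passed the thresholds and are Cyp51 from d0 to d3F and from d0 to d5FS.

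Levels of different genes were compared as CPM per kilobase of effective length. In d0 the order was Hmgcs1 (64.4 ± 0.0046, SD, n = 2), Idi1 (55.8 ± 5.9), Fdft1 (42.7 ± 17.0), Sqle (37.6 ± 2.9), Insig1 (31.4 ± 11.4), Cyp51 (24.0 ± 1.5), Lss (22.0 ± 11.8) and Dhcr7 (6.7 ± 1.8). Only Hmgcs1 at the top and Dhcr7 at the bottom were clear of their neighbours, and each neighbouring pair from Idi1 to Lss overlapped. In d3F Hmgcs1 reached 145 ± 39 and Dhcr7 16.0 ± 4.5, again clear of their neighbours, and the other 6 lay between 50.1 for Insig1 and 76.8 for Fdft1 with overlapping neighbours. Cyp51 moved from the sixth place in d0 to the third in d3F and, at 63.9 ± 10.7, to the second in d5FS, while Idi1 went from the second to the fifth. In d5FS Hmgcs1 at 102 ± 37 and Idi1 at 38.3 ± 1.4 were clear of the gene ranked next below them, and Dhcr7 at 12.8 ± 4.1 overlapped Lss at 22.8 ± 10.2. TPM was not used for this comparison between samples, since genes with an effective length under 100 bases took 44.3% to 70.3% of it.

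Replicates differed in a recurring direction for some members. Fdft1, Lss and Dhcr7 were higher in replicate 2 than in replicate 1 in 3 of 3 populations, and Idi1 was lower in 3 of 3. Hmgcs1 and Sqle were lower in replicate 2 in d3F and d5FS and slightly higher in d0. The largest gap between replicates was 1.15-fold for Idi1, 1.26-fold for Sqle and 1.27-fold for Cyp51, and it ranged from 1.59-fold for Dhcr7 to 2.25-fold for Lss in the other 5 genes.

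The other enzymes of the pathway gave the setting for these values. From a list of 18 symbols, 17 were present and all were tested. The list includes Acat2 and the mevalonate kinases before squalene, and Tm7sf2, Lbr, Msmo1, Nsdhl, Hsd17b7, Ebp and Sc5d after lanosterol, together with electron carriers and 0610007P14Rik. All 17 had their highest mean in d3F, where 20.8% of all tested genes did. When each sample was left out in turn, 15 or 16 of the 17 did. From d0 to d3F all 17 log2 fold changes were positive, with a median of 1.17, and 2 of 17 genes rose by the test. Of all tested genes, 2.8% were called higher from d0 to d3F and 12.4% from d0 to d5FS. Msmo1, the sterol methyl oxidase that acts after Cyp51, measured 88.3 and 116 CPM in d0, 362 and 319 in d3F, with 265 and 178 in d5FS (log2 1.74 ± 0.33, adjusted p = 0.026). Sc5d, the sterol desaturase just before Dhcr7, measured 22.3 and 17.3, then 51.1 and 55.5, then 56.4 and 44.5 (log2 1.43 ± 0.31, adjusted p = 0.0384). Both lost the call when either d3F replicate was left out, Msmo1 also without either d0 replicate and Sc5d also without d0 replicate 2 or either d5FS replicate. Both were also higher in d5FS than in d0, Msmo1 by 1.12 (adjusted p = 0.039, lost whichever sample was left out) and Sc5d by 1.35 (adjusted p = 0.0176, lost without d0 replicate 2 or d5FS replicate 1).

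In the step from d3F to d5FS, all 17 other enzymes had negative log2 fold changes, with a median of -0.72, and 0 of 17 passed edgeR's test. An unadjusted p under 0.05 was found for 3 of them, Acat2 and Hsd17b7 included, and the DESeq2 Wald test called 1 gene, Acat2. Among all 24 enzymes, members included, the values from d0 to d3F ran from 0.05 for Cyb5r3 to 1.74 for Msmo1.

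**Figure D3:**
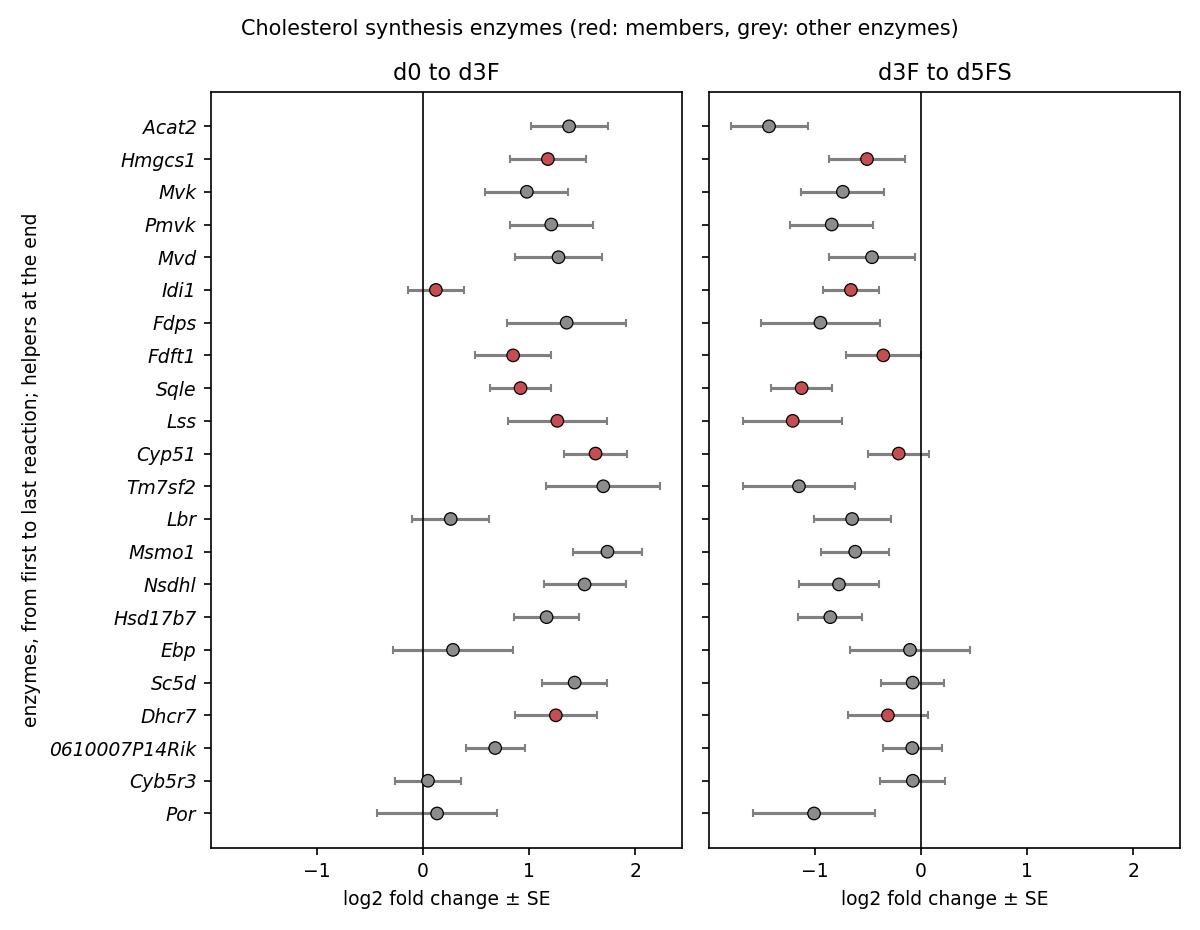
Log2 fold changes ± SE (x axes) of enzymes of cholesterol synthesis in pathway order, members in red and other enzymes in grey. From d0 to d3F all points lie above 0, with Idi1 at 0.12 among the lowest, and from d3F to d5FS all lie below 0.

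Among 14 genes of sterol sensing, 0 passed edgeR's test from d0 to d3F, where 3 genes, Srebf1 and Srebf2 included, had an unadjusted p under 0.05 and the DESeq2 Wald test called 2, Srebf2 included. From d0 to d5FS 3 of 14 were called, all higher, where 12.4% of all tested genes were called higher. Srebf2, the gene of the main activator of the members, measured 90.7 and 102 CPM in d0, 194 and 231 in d3F, with 198 and 224 in d5FS. All 4 later samples lay above d0, with log2 fold changes of 1.14 ± 0.28 to d3F (adjusted p = 0.0571) and 1.13 ± 0.28 to d5FS (adjusted p = 0.024). From d3F to d5FS Srebf2 differed by -0.01 ± 0.28 (adjusted p = 0.989). Of the 8 members, 7 had a lower mean in d5FS than in d3F, and none passed edgeR's test. The activity of the SREBP2 protein was not measured, and its part in the members' levels was not tested. Srebf1, which favours fatty acid genes, measured 30.4 and 57.2, then 92.1 and 101, then 41.9 and 102, and did not pass (1.14 ± 0.47 from d0 to d3F, adjusted p = 0.211). Erlin2, which encodes an endoplasmic reticulum membrane protein, was higher in d5FS than in d0 by 1.11 (adjusted p = 0.0272). The calls of Srebf2 and Erlin2 were lost whichever sample was left out. In the step to d5FS, 0 of 14 passed by either tool, with Erlin2 at an unadjusted p under 0.05.

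Of 15 tested genes of uptake and intracellular transport, 3 rose from d0 to d3F, where 2.8% of all genes were called higher, and 8 were higher in d5FS than in d0, where 12.4% were, with none lower in either comparison. The count of 3 became 1 without d0 replicate 2 or d3F replicate 2. The count of 8 became 4 without d0 replicate 2 or d5FS replicate 2, 5 without d0 replicate 1 or d5FS replicate 1, 3 with glmTreat and 1 with DESeq2 against a log2 fold change of 1. Vldlr, a lipoprotein receptor, had the largest change of the list, from 1.80 and 1.69 CPM in d0 to 67.6 and 134 in d3F, with 87.6 and 77.8 in d5FS (log2 5.84 ± 0.45 to d3F, adjusted p = 0.0024), and it passed whichever sample was left out. Stard4, a cytosolic sterol carrier, rose from 14.7 and 15.7 to 45.1 and 52.7 (log2 1.69, adjusted p = 0.0245). Stard4 lost this call when any d0 or d3F sample was left out.

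In d5FS the lysosomal sterol exporters Npc1 and Npc2 were higher than in d0, by log2 fold changes of 1.84 ± 0.30 (adjusted p = 0.00547) and 2.11 ± 0.41 (adjusted p = 0.0109), and both passed whichever sample was left out. The visceral and liver-like endoderm genes summed above were also higher in d5FS, and their part in these values and in those of Soat2 and Rxra below was not tested. Lrp1, with 1.55, had the next largest call after Vldlr, Npc2, Npc1 and Stard4 (1.59, adjusted p = 0.0105), and it was kept in 3 of 6 fits with a sample left out, being lost without either d0 replicate or d5FS replicate 1. Stard4 lost this call without d5FS replicate 2. Between d3F and d5FS, 0 of 15 passed edgeR's test, with 2 genes, Npc1 included, at an unadjusted p under 0.05 and Npc1 called by the DESeq2 Wald test. The list had a median of 1.07 (log2) for d3F against d0 and of 1.41 for d5FS against d0, against 1.05 and 0.58 for the 8 members.

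Of 8 tested genes of efflux, storage and LXR, none passed from d0 to d3F. Abca1 was lower and Rxra higher in d3F, both at an unadjusted p under 0.05, and both were called by the DESeq2 Wald test. Soat2, which esterifies cholesterol for storage, measured 0.526 and 2.51 CPM in d0, 0.65 and 2.73 in d3F, with 35.0 and 28.9 in d5FS. It rose from d3F to d5FS by a log2 fold change of 4.26 ± 0.83 (adjusted p = 0.0497), a call lost when any d3F or d5FS sample was left out, and was 4.41 ± 0.83 higher in d5FS than in d0 (adjusted p = 0.00973). Rxra, the partner of LXR, was 2.60 ± 0.36 higher in d5FS than in d0 (adjusted p = 0.00363). With Soat2, 2 of 8 genes were called higher from d0 to d5FS, where 12.4% of all tested genes were. Of 9 oxysterol and bile acid genes 4 were expressed enough to be tested and 0 passed edgeR's test in any comparison, while the DESeq2 Wald test called Hsd3b7 lower from d0 to d3F. By unadjusted p under 0.05 these were 1 gene in the step to d3F, 2 in the step from d3F and 1 between d0 and d5FS.

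Other branches leave the pathway at the isoprenoid stage and serve coenzyme Q, dolichol and protein prenylation. Of 13 tested genes, 7 had positive and 6 negative log2 fold changes from d0 to d3F, with a median of 0.05, and 0 passed (Pdss1 and Coq2 at an unadjusted p under 0.05, 0 by DESeq2). In d5FS against d0, where 22.8% of all tested genes were called, the coenzyme Q genes Coq2 and Pdss1 were called in opposite directions. Coq2 was higher by 1.46 ± 0.32 (adjusted p = 0.016) and Pdss1 lower by a log2 fold change of -2.11 ± 0.35 (adjusted p = 0.00603). Pdss1 passed whichever sample was left out, and Coq2 lost its call without d0 replicate 1 or either d5FS replicate. Between d3F and d5FS, 0 of 13 passed edgeR's test, with Pdss1 at an unadjusted p under 0.05 and called by the DESeq2 Wald test.

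Fatty acid synthesis and desaturation genes, many of them targets of SREBP1, were examined as a neighbouring SREBP programme. From d0 to d3F 15 of 16 were positive with a median of 0.54, and 3 desaturases rose. Of all tested genes, 2.8% were called higher from d0 to d3F, and 22.8% were called in either direction from d0 to d5FS. Scd1 went from 40.6 and 48.3 CPM to 242 and 189 (log2 2.28 ± 0.30, adjusted p = 0.0103), Fads1 from 27.7 and 31.3 to 126 and 122 (2.07 ± 0.28, adjusted p = 0.0103) and Fads2 from 17.4 and 21.5 to 86.5 and 86.8 (2.15 ± 0.35, adjusted p = 0.0171). Scd1 passed whichever sample was left out, Fads1 lost its call without d3F replicate 2 and Fads2 without either d3F replicate. From d3F to d5FS 12 of 16 were negative with a median of -0.82, and 0 passed edgeR's test while 9 had an unadjusted p under 0.05 and the DESeq2 Wald test called 4 lower (Acaca, Fads1, Fads2 and Fasn). From d0 to d5FS Scd1 (2.01) and Elovl1 (1.70) were called higher and Acacb (-3.14) lower, and Elovl1 lost its call without d0 replicate 2 or either d5FS replicate.

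**Figure D4:**
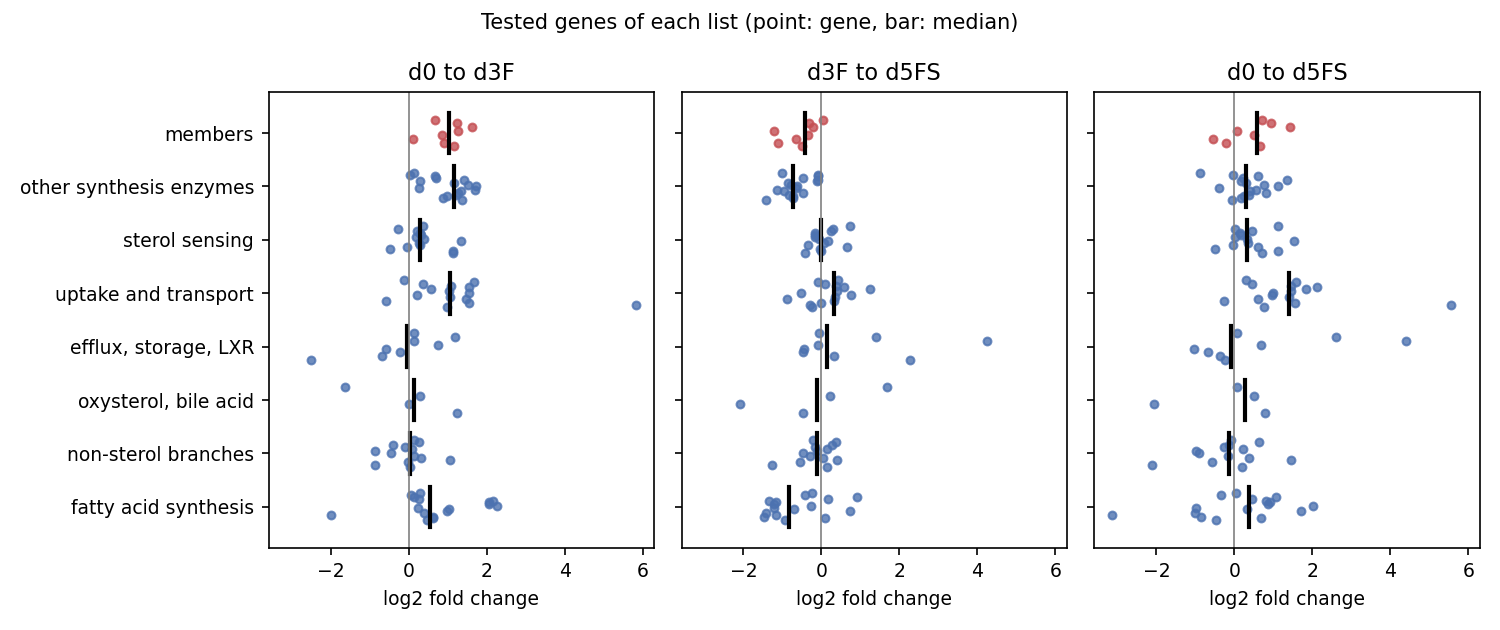
Log2 fold changes (x axes) of the tested genes of each list in the 3 comparisons, with a point for each gene and a bar at the list's median. The members and the other synthesis enzymes have medians of 1.05 and 1.17 from d0 to d3F and of -0.43 and -0.72 from d3F to d5FS, while the uptake genes have a median of 0.31 from d3F to d5FS.

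Genes outside all lists were ranked by the Pearson correlation of their log2 CPM with the mean profile of the 8 members over the 6 samples. The samples fall into 3 stages, so the measure mainly ranks genes by their stage pattern and is given as a description. Among 5550 genes with a mean of at least 5 TPM the median correlation was -0.004 and 0.613% were above 0.9. The most alike were Foxk2 (r = 0.989, Spearman's rho = 0.943), Nt5c3 (0.975, 0.943), Spata24 (0.975, 0.886), Psme2 (0.962, 1.0) and Gpr125 (0.956, 0.943). Of these only Psme2, which encodes a proteasome activator subunit, was called from d0 to d3F (log2 1.49, adjusted p = 0.0264), with 54.3 and 57.4 CPM in d0, 138 and 175 in d3F, with 83.8 and 73.0 in d5FS. The least alike were Ssr2 (r = -0.979, rho = -0.943), Rev1 (-0.963, -0.771) and Rpe (-0.948, -0.943), which were lowest in d3F. On the same measure 16 other synthesis enzymes had a median r of 0.872, with Pmvk and Nsdhl highest at 0.947 and Cyb5r3 lowest at -0.08, and among the members, which enter the profile themselves, Idi1 stood apart at 0.242 from the 7 others at 0.718 to 0.874.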

How the data were processed

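The study isolated RNA of sorted DKI cells (2 biological replicates per population), removed ribosomal RNA, and sequenced 100 bp paired ends from an unstranded library kit. Per the labels and the study's methods, the authors aligned reads to mm10 with STAR and deposited 1 RSEM gene table per sample. The methods describe ribosomal depletion for all libraries, while the list of libraries names one of each population mRNA and the other totRNA. Versions are not given in the sources used here. The deposited expected counts are RSEM's estimates of fragments per gene, without normalization. The deposited TPM values are scaled for effective length and to 1 sum per sample, and were used for an expression minimum and, rescaled by the TMM factors, for an alternative on levels. FPKM values deposited by the authors were not used. The effective length that the authors deposited, another column in bases, served to express CPM per kilobase.

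Expected counts were rounded and fitted in edgeR 4.0.16 (R 4.3.3; filterByExpr, TMM, quasi-likelihood, all 6 samples, residual degrees of freedom 3). A call needed a p below 0.05 after Benjamini-Hochberg adjustment and a log2 fold change beyond 1 in either direction. The SE is the size of that change over the root of F. With 2 samples a group, no exact permutation test of a single gene can reach 0.05, so none was run. DESeq2 1.42.0 was an alternative. The script was tested on simulated data. Promoters are from RefSeq (mm10), gene positions from GENCODE M21. The members, gene lists and tests were chosen with earlier results of these data known. From each list the text names the genes called in any comparison, at most 6 by size of change, plus a few regulators and targets such as Srebf1 and Srebf2, and beside counts of 5 or fewer it names further genes chosen after their values were seen. Fractional counts, which RSEM gives where reads fit several genes, occurred in Fdft1 and Lss only. Hmgcs1 and Idi1 share 557 and 323 exon bases with opposite-strand genes that were not among the genes listed. Some genes of these lists enter the counts but are not reported here by name.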

Additional observations from a re-analysis of the deposited data

How the results depend on the processing

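The number of members called from d0 to d3F, 1 as reported, was 3 with the DESeq2 Wald test, 4 without a filter, 4 with the replicate block, 0 with DESeq2 against a log2 fold change of 1, 0 with glmTreat, and 0 to 1 when a sample was left out. From d3F to d5FS, 0 as reported, it was 1, 2 and 2 with the first 3 of these. From d0 to d5FS, 1 as reported, it was 0 with DESeq2 against 1, 0 with glmTreat and 0 to 1 with a sample left out. The block called Hmgcs1, Lss, Cyp51 and Dhcr7 from d0 to d3F and Sqle and Lss from d3F to d5FS. The labels do not say what a replicate number shares, nor which library was the one listed as mRNA or totRNA. For every tested gene, the log2 CPM of replicate 1 minus that of replicate 2 was taken in each population. Across genes, these differences correlated at 0.314 between d0 and d3F, 0.324 between d0 and d5FS and 0.278 between d3F and d5FS. Each correlation compares 2 pairs of samples. Log2 fold changes that changed sign did so with a sample left out. They ranged from -0.69 to 0.01 for Dhcr7 (0.0059 without d3F replicate 2) and from -0.40 to 0.36 for Insig1 (also -0.05) from d3F to d5FS, and from -0.48 to 0.76 for Lss (also -0.42) from d0 to d5FS. The cause was not tested. Of the 5 genes most alike by Pearson's r, 1 reached the fifth highest Spearman's rho, and 61 genes had a rho at or above the lowest of the 5. Over all genes, 683 calls from d0 to d3F became 1477 (DESeq2 Wald), 377 (DESeq2 against 1), 242 (glmTreat), 1933 (no filter), 357 (at least 10 counts in every sample), 1320 (block) and 430 (2 groups only). The 224 calls from d3F to d5FS became 1065, 192, 70, 1423, 144, 918 and 529 in this order, and the 3313 from d0 to d5FS became 996 with DESeq2 against 1 and 1235 with glmTreat. Leaving out a sample gave 97 to 977, 0 to 496 and 1047 to 3037.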
